A study of Mus musculus with 8 samples.

Results

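The receptors described here are those through which neurotrophins, ligands of the glial cell line-derived neurotrophic factor (GDNF) family and oncostatin M act on sensory neurons and their glia. They were measured in mouse trigeminal ganglia, where the neurons for facial sensation lie. The members were 9 genes chosen by symbol (Ntrk2, Ntrk3, Ngfr, Ret, Gfra1, Gfra2, Gfra3, Gfra4 and Osmr), and every probe set that the platform annotation assigned to 1 of these symbols alone was taken. All 9 genes had such a probe set, and together they had 34 of the 45037 probe sets tested, or 9 of 18193 genes.

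RNA was hybridised to 8 Affymetrix Mouse Genome 430 2.0 arrays. In 4 of them it came from daDREAM transgenic mice, whose titles carry the tag tg16, and in the other 4 from control mice. All were labelled as adult males on a C57B/6XCBA background. Kcnip3 encodes DREAM, a repressor of transcription that leaves DNA when calcium rises, and daDREAM is a mutant form made to stay active. The sources used here do not give the promoter that drives the transgene, the exact age or whether an array holds 1 animal or a pool. A p-value therefore reflects only how far these samples spread.

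Values are log2 expression from robust multiarray averaging (RMA), in which a step of 1 is a doubling of signal. A gene is represented by its brightest probe set, differences are daDREAM minus control, and a gene or probe set passed at a limma p below 0.05 after Benjamini-Hochberg adjustment over all genes or all probe sets. Levels of different probe sets cannot be compared with each other, because probes differ in how well they bind. In whole ganglia, fewer cells of a type and less RNA per cell cannot be told apart.

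Some arrays stood apart or went against their labels. Xist, the transcript of the inactive X chromosome of females, read 11.51 on daDREAM replicate 4 and 10.20 and 11.72 on control replicates 3 and 4, against 6.10 to 6.49 on the other 5 arrays. Eif2s3y, a gene of the Y chromosome, set these arrays with Xist signal apart from each other. Its value was 4.46 for daDREAM replicate 4, but control replicate 3 gave 8.40 and control replicate 4 gave 7.16. All remaining arrays lay between 8.74 and 9.04. Both of these controls thus had signal for Xist as well as Eif2s3y. Whether they hold pooled RNA of both sexes was not tested. The 18S ribosomal control was highest on control replicates 1 and 4, the muscle actin Acta1 on control replicates 1 and 3, and growth hormone (Gh) on daDREAM replicates 3 and 4 and control replicate 3. Sensory neuron markers were bright on all arrays, and the means of 11 such genes, among them Nefl, Prph and Isl1, lay between 10.16 and 14.44. Markers of central nervous system cells had higher values in daDREAM ganglia at 10 of 10 genes, with a median difference of 0.54. The log2 of their summed signal ran from 13.96 to 14.53 on daDREAM arrays and from 13.45 to 14.28 on control arrays. Of the 10 genes 1 passed, the astrocyte water channel Aqp4 (higher by 0.76, limma adjusted p = 0.0173), where 0.984% of all genes passed as higher. Gfap, which marks astrocytes and reactive satellite glia, differed by 1.58 at its brightest probe set without passing (limma adjusted p = 0.0660 over genes). Its other probe sets disagreed. Over probe sets, 1440142_s_at was higher by 3.15 (limma adjusted p = 6.22e-09), while 1426509_s_at differed by 0.65 without passing (adjusted p = 0.307). Control arrays ran from 8.29 to 10.22 at the brightest probe set but only from 5.68 to 5.98 at 1440142_s_at. Of 3 blood markers, the neutrophil proteins S100a8 (1.03, limma adjusted p = 3.82e-04) and S100a9 (1.08, adjusted p = 0.00630) passed as higher, against 0.984% of all genes. The haemoglobin gene Hba-a1 went the other way (-0.145, adjusted p = 0.415). Skeletal muscle markers had values below 0 at 6 of 6 genes, with a median difference of -0.93, and 0 passed limma. At an unadjusted p below 0.05 there were 4, where 18.2% of all genes reached this. Single arrays weighed on these values: Myh1 read 7.50 and 9.71 on control replicates 1 and 3, against 4.17 to 4.45 on the other arrays. At Myl1 all daDREAM arrays lay below all control arrays. The part of these other cells in the receptor values was not tested.

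As background, neurotrophins bind receptor tyrosine kinases of the Trk family, of which TrkB (Ntrk2) is the receptor for BDNF and neurotrophin-4 and TrkC (Ntrk3) the receptor for neurotrophin-3. The p75 receptor (Ngfr) binds all neurotrophins and is also made by Schwann cells and satellite glia. Ligands of the GDNF family first bind a GFRα co-receptor that is anchored to the membrane by a lipid, and the complex then activates the kinase Ret. The GFRα proteins divide the ligands among them: Gfra1 prefers GDNF, Gfra2 neurturin, Gfra3 artemin and Gfra4 persephin. Osmr pairs with gp130 (Il6st) to bind oncostatin M and with Il31ra to bind the itch cytokine interleukin-31. In adult ganglia Trk and Ret receptors help to mark classes of sensory neuron, and myelinated neurons can carry Ntrk2, Ntrk3 or Ret. Both Ntrk2 and Ntrk3 produce truncated forms without the kinase beside the full-length receptor.

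DREAM binds DNA at downstream regulatory elements whose core is the letters GTCA, so this core was looked for in the stretch from 250 bases before to 50 bases after the transcription start. RefSeq promoters (build GRCm38.p6) were matched for 5 of the 9 receptors, namely Ntrk2, Ngfr, Gfra1, Gfra4 and Osmr. The core was present on either strand (GTCA or TGAC) in 4 of these 5, all but Osmr. Counted by promoter, 5 of the 6 promoters of these receptors held the core. Over all 32851 promoters of the same length, 85.2% hold it, so a match is common and is given only as a description. The windows below show the core in capitals with 10 bases on each side, 5′ to 3′ on the gene's strand, for the 3 of these receptors that bind neurotrophins or GDNF.
Ntrk2 (chr13:58806540-58806563, plus strand, 19 bases before the start): cctcgaaagtGTCAggcactgcgg
Ntrk2 (chr13:58806579-58806602, plus strand, 21 bases into the transcript): cccttttaaaTGACtgcggatgtg
Ngfr (chr11:95587831-95587854, minus strand, 146 bases before the start): acgcctcactTGACtgctctggac
Gfra1 (chr19:58455462-58455485, minus strand, 77 bases before the start): ctggacaccgGTCAattgggttca

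At the level of genes, none of the 9 receptors passed. The receptors were therefore not shown to change at their brightest probe sets, where all 9 differences lay between -0.18 (Gfra1) and 0.20 (Gfra4). Over all genes 364 of 18193 passed, or 2.00% (0.984% higher and 1.02% lower). At an unadjusted p below 0.05 there was 1 receptor of 9, Gfra1, where 18.2% of all genes reached this. An unequal-variance test per gene passed 0 of the 9, where only 49 of all 18193 genes passed it. The one departure was in single probe sets of Ntrk3. Of its 8 probe sets, 2 fell: 1447723_at was 2.99-fold lower and 1455917_at 1.39-fold lower in daDREAM ganglia. These were the only ones of the 34 receptor probe sets to pass, so 0 were higher and 2 (of 34) lower, while 2.74% of all probe sets passed, 1.42% as higher and 1.32% as lower.

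**Figure D1:**
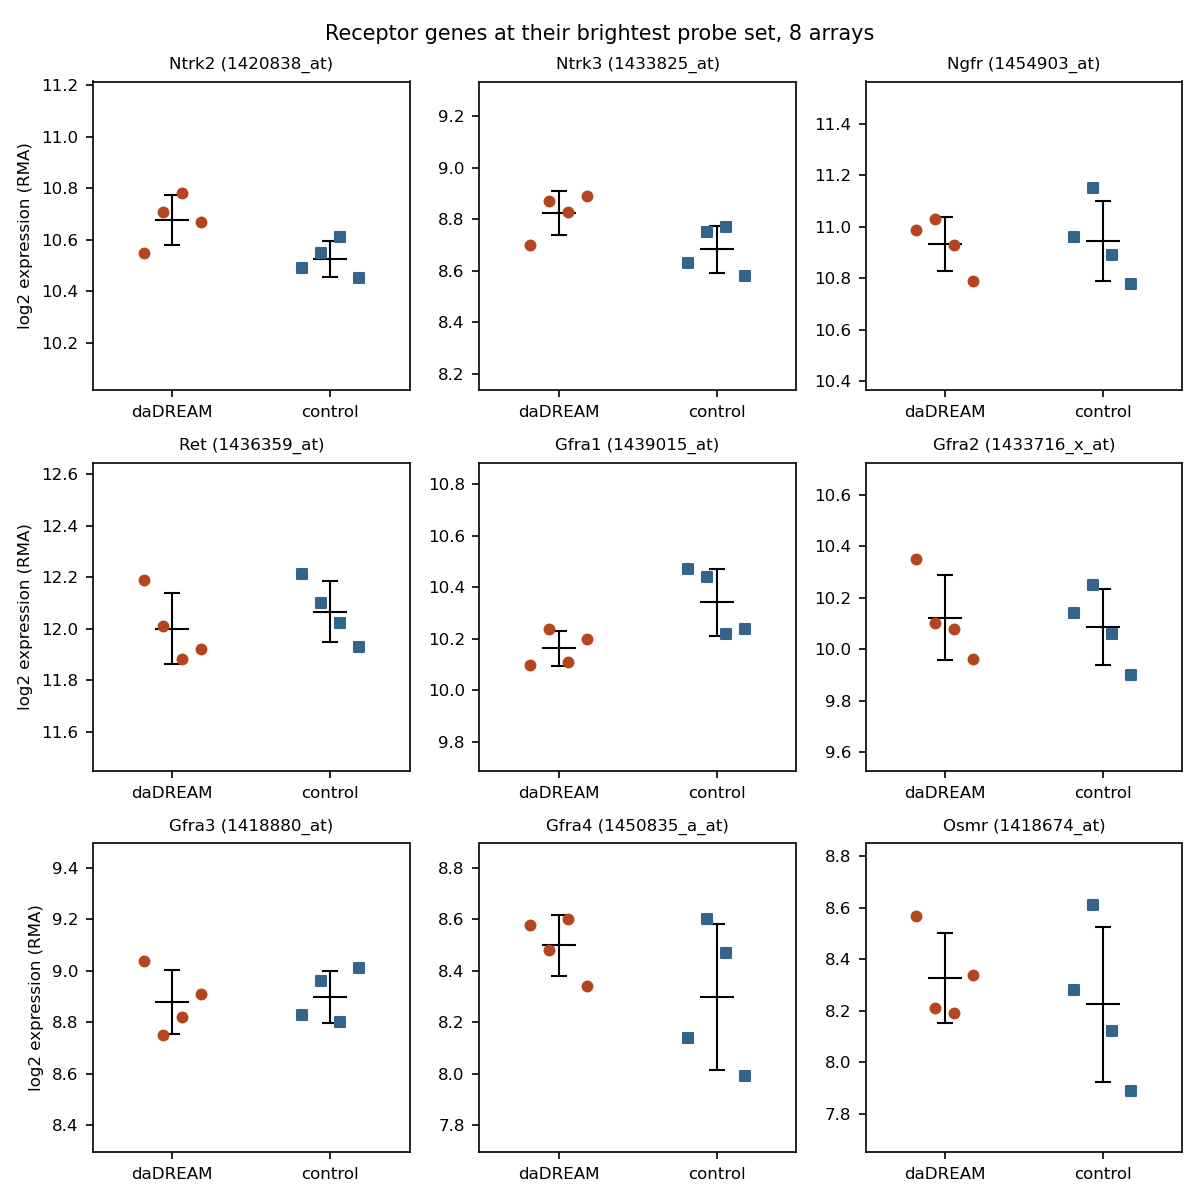
Log2 expression (RMA, vertical axes, each spanning 1.2 units) of the 9 receptors at their brightest probe set. Circles are the 4 daDREAM arrays and squares the 4 control arrays, with the group mean and SD in black. The groups overlap in all 9 panels.

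TrkB was measured by 8 probe sets. The brightest, 1420838_at, read 10.55, 10.71, 10.78 and 10.67 on the 4 daDREAM arrays and 10.49, 10.55, 10.61 and 10.45 on the 4 control arrays. Only daDREAM replicate 1 lay within the control range, at its upper part, and the groups overlapped. The means were 10.68 ± 0.10 in daDREAM and 10.53 ± 0.07 in control ganglia (SD, n = 4 each), a difference of 0.15 (SE 0.07, 95% interval -0.01 to 0.32, limma adjusted p = 0.306). The interval thus reached no further than 0.32 upwards. The other Ntrk2 probe sets differed by -0.13 to 0.16, and 2 of the 8 were dim, with means below 6 in both groups, where signal is near background. Of the 8 differences, 6 were above 0, and 0 probe sets passed (0 also at an unadjusted p below 0.05).

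TrkC, the neurotrophin-3 receptor, gave different answers at different probe sets. The brightest, 1433825_at, read 8.70, 8.87, 8.83 and 8.89 on daDREAM arrays and 8.63, 8.75, 8.77 and 8.58 on control arrays. Its difference was 0.14 (SE 0.08, 95% interval -0.03 to 0.31, limma adjusted p = 0.352). The groups overlapped there. Probe set 1447723_at read 6.36, 6.28, 6.60 and 6.60 on daDREAM arrays and 7.76, 8.03, 8.21 and 8.16 on control arrays. Every daDREAM array lay more than a full log2 unit below every control array. The means were 6.46 ± 0.16 in daDREAM and 8.04 ± 0.20 in control ganglia (SD, n = 4 each), a difference of -1.58 (SE 0.11, 95% interval -1.83 to -1.33, limma adjusted p = 8.87e-06 over probe sets). Of all 45037 probe sets, 41 had a difference this low or lower, itself included.

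The second probe set that fell, 1455917_at, read 8.25, 8.15, 8.14 and 8.28 on daDREAM arrays and 8.81, 8.71, 8.86 and 8.33 on control arrays. The groups did not overlap, but control replicate 4 lay only just above the highest daDREAM array. The means were 8.21 ± 0.07 in daDREAM and 8.68 ± 0.24 in control ganglia (SD, n = 4 each), a difference of -0.47 (SE 0.11, limma adjusted p = 0.0446). This call is fragile: without any single array other than control replicate 4 it was lost, with adjusted p from 0.0720 to 0.132, and without control replicate 4 adjusted p was 0.00173.

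The remaining Ntrk3 probe sets did not pass. Probe set 1422329_a_at read 8.25, 8.15, 8.10 and 8.10 on daDREAM arrays and 8.23, 8.41, 8.66 and 8.22 on control arrays, with a difference of -0.23 (limma adjusted p = 0.251 over probe sets). Another, 1425071_s_at, had the opposite sign, 0.34 (adjusted p = 0.195), and read 6.90, 6.99, 6.85 and 6.71 on daDREAM arrays and 6.42, 6.79, 6.72 and 6.16 on control arrays. Both had overlapping groups. The last 3 differed by 0.17 (1443970_at), -0.015 (1425070_at) and 0.06 (1426003_at), the last of them dim in both groups. The sources used here do not give which transcript forms of Ntrk3 each probe set covers.

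**Figure D2:**
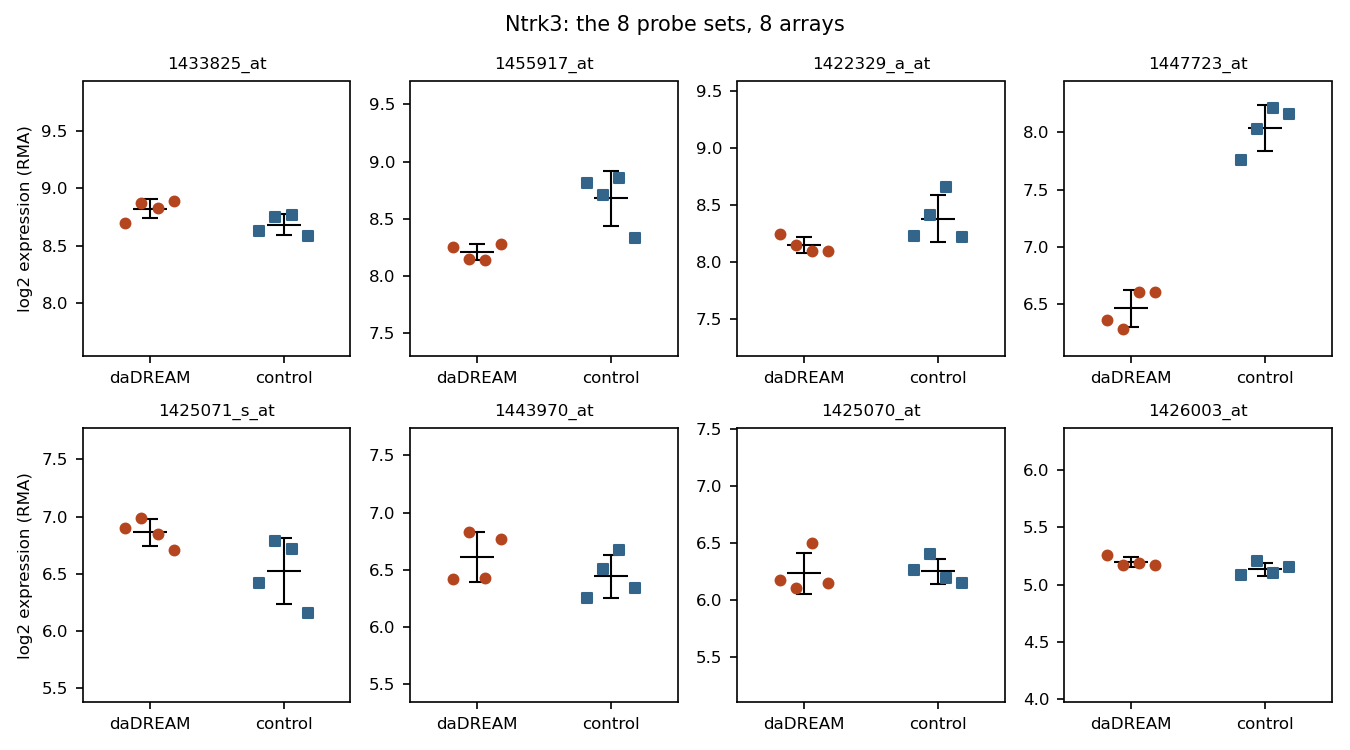
Log2 expression (RMA, vertical axes, each spanning 2.4 units) at the 8 probe sets of Ntrk3, in order of mean brightness. Circles are daDREAM arrays and squares control arrays, with mean and SD in black; 1447723_at and 1455917_at have groups that do not overlap, with daDREAM lower, and the other 6 overlap.

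To test whether probe sets of a gene moved differently, the signal of each probe set was taken relative to its gene's brightest probe set on the same array, and these within-array differences were compared between groups with limma over 16752 probe sets. These differences were first compared by exact permutation of the 8 arrays (two-sided), where 4 of the 25 receptor differences, both Ntrk3 probe sets that fell among them, reached the smallest p it allows, 0.0286 (adjusted over the 25, p = 0.179), so that none could pass. The limma test was added after that result and after the values were seen. Relative to 1433825_at, probe set 1447723_at stood at -2.36 ± 0.16 in daDREAM and -0.64 ± 0.20 in control ganglia (SD, n = 4 each), a change of -1.72 (SE 0.12, limma adjusted p = 5.59e-06). For 1455917_at the values were -0.62 ± 0.12 in daDREAM and -0.0050 ± 0.19 in control ganglia, a change of -0.61 (SE 0.11, limma adjusted p = 0.0119). Among 25 such differences of the receptors, these 2 passed, against 2.76% of all 16752. The first passed under every alternative run. The second was lost without daDREAM replicate 2 (limma adjusted p = 0.0542), without the arrays with the most Acta1 (0.130) or Gh (0.280) and with the unequal-variance test (adjusted p = 0.146). Such disagreement is found elsewhere on these arrays: of 9010 genes with more than 1 probe set, 370 (4.11%) had a brightest probe set that did not pass and another that did.

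With another choice of probe set the answer for Ntrk3 as a gene changed. When each gene was represented by its most variable probe set, Ntrk3 was read at 1447723_at. It differed there by -1.58 (limma adjusted p = 5.92e-06) and was the only receptor of the 9 to pass. Variance was taken over all 8 arrays, group difference included, so this repeats the fall at that probe set and adds no support. With this choice 697 of all genes passed, against 364 in the main test. When the probe sets of a gene were averaged, Ntrk3 differed by -0.20 without passing (adjusted p = 0.161).

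The fall at 1447723_at was of similar size without the arrays that stood apart. Its difference was -1.48 without the 3 arrays with Xist signal, -1.66 without those with the most 18S, -1.63 without those with the most Acta1 and -1.66 without those with the most Gh, and it passed each time (limma adjusted p from 1.03e-04 to 8.42e-04). At 1455917_at the difference was -0.58 without the Xist arrays and also without the 18S arrays, and it passed both times (adjusted p = 0.0152 and 0.00960). It was -0.32 without the Acta1 arrays and -0.42 without the Gh arrays, and did not pass (adjusted p = 0.250 and 0.291). Of 6 measured markers of the myelinated neurons that carry Ntrk2, Ntrk3 or Ret, 5 had values above 0, with a median difference of 0.145, and 0 passed limma (2 of 6 at an unadjusted p below 0.05, where 18.2% of all genes reached this). The largest of them were the calcium-binding proteins Calb1 (0.49, limma adjusted p = 0.0910) and Pvalb (0.34, adjusted p = 0.120). Runx3 went the other way (-0.19, adjusted p = 0.365), and Necab2 stood close to 0 (0.03).

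Over all 45037 probe sets, those whose 8 values most resembled 1447723_at were chosen after its values were seen. Likeness was measured as the root mean square distance between profiles after each probe set's mean was subtracted. The nearest 3 with a gene symbol were probe sets of the phosphatase Ptp4a2 (distance 0.15), the RNA-binding protein Taf15 (0.15) and the predicted gene Gm13306 (0.16). The Ptp4a2 probe set read 10.10, 9.99, 9.89 and 10.14 on daDREAM arrays and 11.25, 11.39, 11.65 and 11.79 on control arrays.

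The p75 receptor Ngfr had 3 probe sets. At the brightest, 1454903_at, it read 10.99, 11.03, 10.93 and 10.79 on daDREAM arrays and 10.96, 11.15, 10.89 and 10.78 on control arrays. The groups covered almost the same range, and the difference was -0.010 (SE 0.09, 95% interval -0.21 to 0.19, limma adjusted p = 0.968). Probe set 1450177_at differed by 0.27 and 1421241_at by 0.44 (limma adjusted p = 0.353 and 0.217 over probe sets). At 1421241_at control replicate 1 read 7.75, against 8.66 to 8.96 on daDREAM arrays and 8.45 to 8.71 on the other control arrays. This array also had high 18S signal. The difference there was 0.23 without control replicate 1 and 0.16 without both arrays with the most 18S. The part of 18S in it was not tested.

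Ret, the shared kinase of the GDNF family receptors, had 2 probe sets that differed in sign. The brighter, 1436359_at, read 12.19, 12.01, 11.88 and 11.92 on daDREAM arrays and 12.21, 12.10, 12.02 and 11.93 on control arrays. Its difference was -0.065 (SE 0.09, 95% interval -0.26 to 0.13, limma adjusted p = 0.733), with overlapping groups. The other, 1421359_at, read 10.64, 10.67, 10.45 and 10.55 on daDREAM arrays and 10.22, 10.42, 10.33 and 10.40 on control arrays. Here all daDREAM arrays lay above all control arrays, by 0.235 on average (SE 0.08), but the probe set did not pass (limma adjusted p = 0.149). It and the 2 that fell in Ntrk3 were the 3 of 34 receptor probe sets whose groups did not overlap, where 11.0% of all probe sets had such groups.

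The co-receptor of GDNF, Gfra1, read 10.10, 10.24, 10.11 and 10.20 on daDREAM arrays and 10.47, 10.44, 10.22 and 10.24 on control arrays at its brightest probe set. Control replicates 1 and 2 lay above all daDREAM arrays, while control replicates 3 and 4 lay among them. The means were 10.16 ± 0.07 in daDREAM and 10.34 ± 0.13 in control ganglia (SD, n = 4 each), a difference of -0.18 (SE 0.08, limma adjusted p = 0.271). Its other 2 probe sets differed by -0.015 and 0.23 without passing.

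Gfra2, the neurturin receptor of non-peptidergic nociceptors, had 5 probe sets and none passed over all probe sets. At the brightest it read 10.35, 10.10, 10.08 and 9.96 on daDREAM arrays and 10.14, 10.25, 10.06 and 9.90 on control arrays, a difference of 0.035 (SE 0.10, 95% interval -0.19 to 0.26, limma adjusted p = 0.882). The dimmest, 1425578_a_at, came nearest to passing and read 7.80, 7.74, 8.03 and 7.84 on daDREAM arrays and 7.34, 7.44, 7.43 and 7.79 on control arrays. The 3 lowest values were all controls, but control replicate 4 lay among the daDREAM arrays. Its difference was 0.35 (limma adjusted p = 0.109), and it passed without control replicate 4 (0.45, adjusted p = 0.0187) and with array weights (0.41, adjusted p = 0.0301). The other 3 differed by -0.145, 0.20 and 0.27. The genes that accompany Ret and Gfra2 in non-peptidergic neurons all had values below 0: of 5 measured, among them P2rx3 and Plxnc1, 0 passed limma (2 of 5 at an unadjusted p below 0.05, where 18.2% of all genes reached this), and their median difference was -0.26.

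Gfra3, the artemin receptor of peptidergic nociceptors, was measured by 1 probe set, which read 9.04, 8.75, 8.82 and 8.91 on daDREAM arrays and 8.83, 8.96, 8.80 and 9.01 on control arrays. The difference was -0.020 (SE 0.08, 95% interval -0.21 to 0.17, limma adjusted p = 0.922). Values of both groups were interleaved. Peptidergic markers stood close to 0 as well, with a median difference of 0.015 over 5 genes, among them Tac1 and Trpv1, and 0 passed limma (0 also at an unadjusted p below 0.05).

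Gfra4, the persephin receptor, was also measured by 1 probe set, which read 8.58, 8.48, 8.60 and 8.34 on daDREAM arrays and 8.14, 8.60, 8.47 and 7.99 on control arrays. The 2 lowest values were control replicates 1 and 4, where 18S was strongest. The difference was 0.20 (SE 0.13, 95% interval -0.08 to 0.48, limma adjusted p = 0.421), and without these 2 arrays it was -0.035. The part of 18S was not tested. The 3 genes most like Gfra4 over the 8 arrays were Mapkapk5, Btbd2 and Camsap3, each at a distance of 0.04 on the log2 scale.

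Osmr, the receptor subunit for oncostatin M and interleukin-31 on itch neurons, varied most among arrays of the 9 receptors (SD 0.24 over 8 arrays, followed by Gfra4 with 0.23). At its brightest probe set it read 8.57, 8.21, 8.19 and 8.34 on daDREAM arrays and 8.28, 8.61, 8.12 and 7.89 on control arrays. The highest and the lowest value were both controls. The difference was 0.10 (SE 0.14, 95% interval -0.21 to 0.41, limma adjusted p = 0.731), and it was -0.12 without the arrays with Xist signal. The other 2 probe sets differed by 0.045 and 0.048, and 1 of them was dim. Its nearest genes were Tmem53 and Gng8 (distance 0.05 each) and the galectin Lgals1 (0.06). Markers of itch neurons, among them Nppb and Il31ra, had a median difference of 0.050 over 7 genes, and 0 passed limma (0 at an unadjusted p below 0.05).

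**Figure D3:**
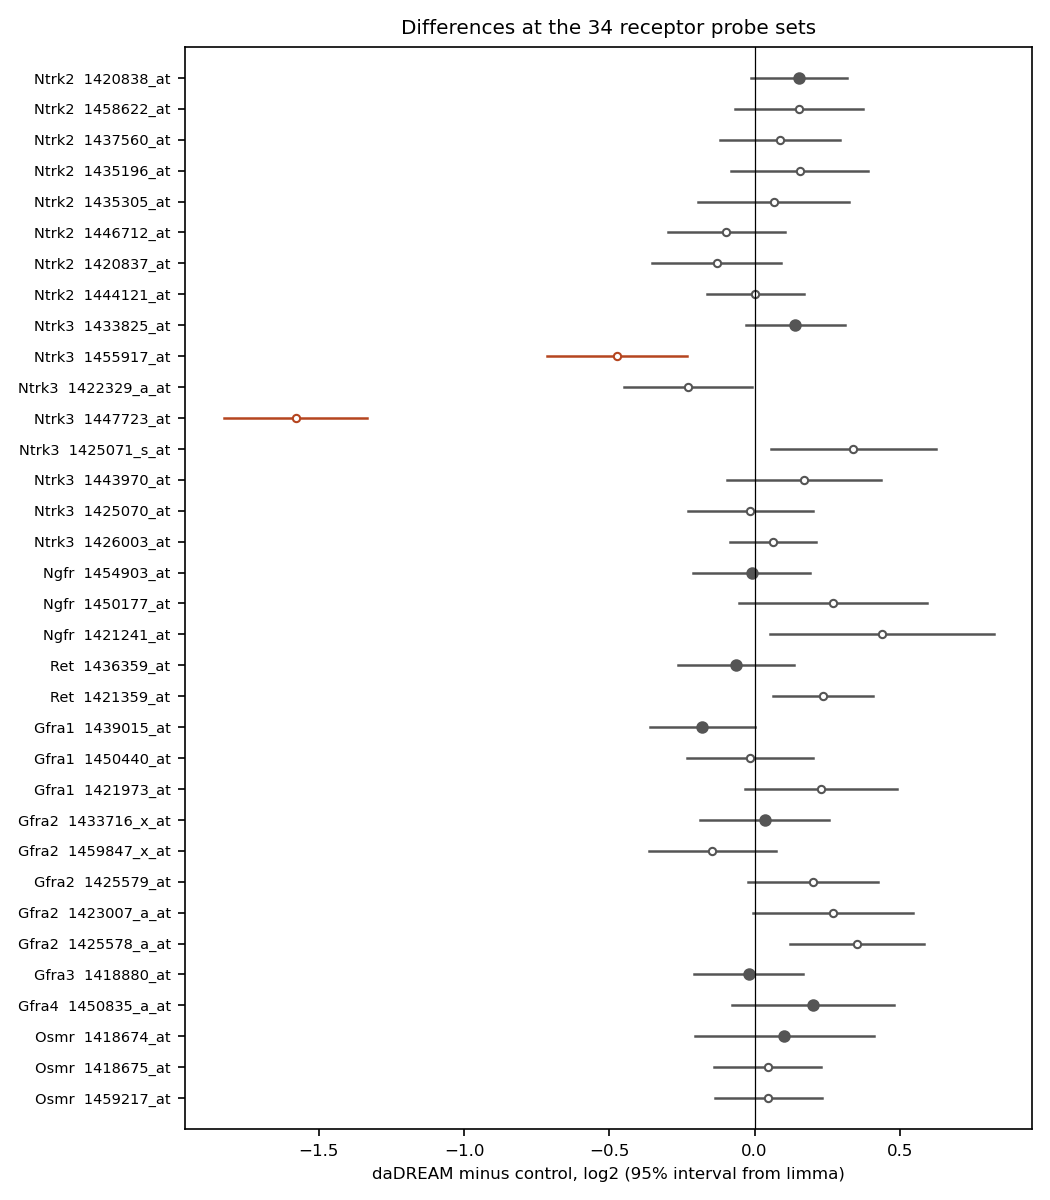
Differences (daDREAM minus control, log2, horizontal axis) at the 34 receptor probe sets, with 95% intervals from limma. Filled points are the brightest probe set of each gene, open points the others, and red marks those that passed, 1447723_at and 1455917_at of Ntrk3, which lie at -1.58 and -0.47.

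Over the 34 probe sets, 22 differences were above 0 and 12 at or below it, with a median of 0.06, where the median over all probe sets was -0.0075. At an unadjusted p below 0.05 there were 7, or 4 in Ntrk3 and 1 each in Ngfr, Ret and Gfra2, where 18.5% of all probe sets reached this.

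Beyond the receptors, 66 of 75 listed genes of these pathways had a probe set of their own. Of these 1 passed, where 2.00% of all genes did. The gene that passed was Shc3, a neuronal adaptor that links activated Trk receptors to Ras signalling. It read 7.25, 7.16, 7.16 and 7.20 on daDREAM arrays and 6.55, 6.65, 6.62 and 6.91 on control arrays. All daDREAM arrays lay above all control arrays. The means were 7.19 ± 0.04 in daDREAM and 6.68 ± 0.16 in control ganglia (SD, n = 4 each), and Shc3 rose 1.42-fold (log2 difference 0.51, SE 0.08, limma adjusted p = 0.00849), where 0.984% of all genes passed as higher. It was measured by 1 probe set, and it did not pass without the arrays with the most Acta1 (0.41, adjusted p = 0.121) or the most Gh (0.50, adjusted p = 0.201).

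Among adaptors and kinases 1 of 29 thus rose, where 0.984% of all genes passed as higher, and 28 did not pass. Their median difference was 0.050. Bex1, which binds the p75 receptor, had the largest value on the list at 0.55 (limma adjusted p = 0.122) and overlapping groups. Its highest value was 10.80 on daDREAM replicate 3 and its lowest 9.61 on control replicate 4. These arrays also gave the highest and lowest Gfap (11.24 and 8.29). Not all arrays followed: control replicates 1 and 2 read 10.05 and 10.00 for Bex1 but 8.63 and 10.20 for Gfap. The part of cells that make Gfap in the Bex1 values was not tested.

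Of 10 ligands 0 passed limma (3 at an unadjusted p below 0.05, a threshold that 18.2% of all genes reached), and their median difference was -0.03. The ligand of Osmr, oncostatin M (Osm), read 6.53, 6.67, 6.57 and 6.56 on daDREAM arrays and 6.88, 6.73, 6.75 and 7.08 on control arrays. Its groups did not overlap, and its difference of -0.28 did not pass (adjusted p = 0.142). Persephin (Pspn), the ligand of Gfra4, differed by -0.22 (adjusted p = 0.237) at means below 6 in both groups. Partner receptors numbered 16, with a median of 0.02, and 0 passed limma (2 of 16 at an unadjusted p below 0.05, against 18.2% of all genes). The largest of these by p were the p75 partner Maged1 (0.26, adjusted p = 0.188) and the gp130 partner Lifr (-0.25, adjusted p = 0.248). Genes that respond to these receptors numbered 11, with a median of 0.06, and 0 passed limma (3 of 11 at an unadjusted p below 0.05, against 18.2% of all genes). Of these the transcription factor Etv4 differed by -0.29 (adjusted p = 0.176) and the neuropeptide precursor Vgf by 0.32 (adjusted p = 0.179). With an unequal-variance test per gene 0 of the 66 passed, where only 49 of all 18193 genes passed it. The median difference over all genes was 0.

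**Figure D4:**
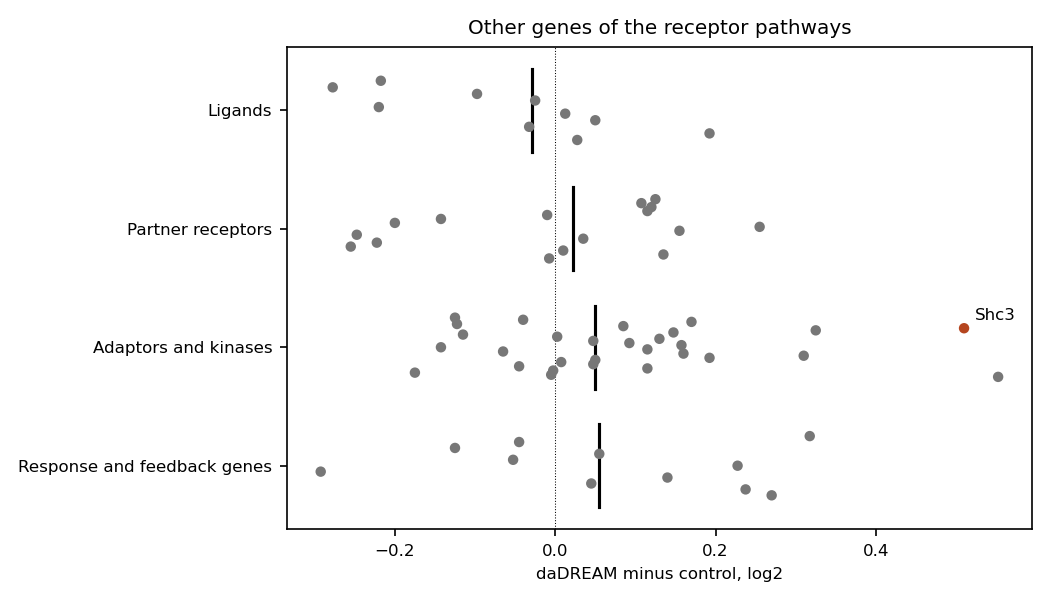
Differences (daDREAM minus control, log2, horizontal axis) of 66 other genes of the receptor pathways, by list (vertical axis). Points are genes, black bars list medians, and the red point is Shc3, which passed at 0.51 and is the only one to do so.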

How the data were processed

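The authors deposited log2 values per probe set. The submitters' processing notes name RMA and the affy package, and the sources used here give no version. RMA corrects background, equalizes the distributions of arrays and fits probe sets by median polish, so shifts shared by most genes are removed. The 64 Affymetrix control probe sets of 45101 were not tested. Platform annotation gave 34945 a single symbol. Values ran from 3.39 to 14.94, and precision is limited by there being 8 arrays.

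The test was limma's moderated linear model (version 3.58.1, R 4.3.3), two-sided and with group as the only term. The gene test was checked on simulated data. Figures were drawn with matplotlib 3.10.9. Members and lists were chosen with earlier results of these data known. Named genes are the 9 receptors, members of the pathway lists that passed or else the 2 with the smallest p in a list, examples from the marker lists, and the 3 genes most like the 2 most variable receptors. Ngfrap1 was looked up under its current symbol, Bex3. Bex1, Calb1, Pvalb and other marker genes were named after their values were seen. Alternatives covered normalization, dim probe sets, the choice of probe set, the variance model, array weights, the replicate number and leaving out arrays. Leaving out sets of arrays was chosen after seeing the data.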

Additional observations from a re-analysis of the deposited data

Results flagged for a closer look

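Of 68 groups of 4 values, 2 for each of the 34 receptor probe sets, 1 held an array set apart from the other 3 (Dixon's test for 4 values), where chance gives about 1 in 20 groups. At Gfra2 probe set 1459847_x_at control replicate 4 read 8.55, against 8.92 to 8.94 on the other control arrays.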

How the results depend on the processing

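Probe set 1447723_at of Ntrk3 kept its direction and passed under every alternative run, with adjusted p at most 0.0174 (unequal-variance test). Where other results moved, the cause was not tested. The receptor probe sets that passed numbered 1 with the unequal-variance test and without the arrays with the most Acta1 or Gh, and from 1 to 3 when single arrays were left out; receptor genes numbered 1 with the most variable probe set. Of pathway genes 2 passed with the replicate block, the most variable probe set and without the arrays with Xist, 0 with the unequal-variance test and without the arrays with the most Acta1 or Gh, and 1 to 2 when single arrays were left out. Genes past the test numbered 672 with the replicate block, 697 with the most variable probe set, 49 with the unequal-variance test, 213, 227, 171 and 98 without the arrays with Xist, 18S, Acta1 and Gh, and 229 to 349 without single arrays (229 without daDREAM replicate 2, 236 without daDREAM replicate 3). Probe sets past the test numbered 2017 with the replicate block, 166 with the unequal-variance test, 760, 649 and 392 without the arrays with 18S, Acta1 and Gh, and 755 to 1271 without single arrays (755 without daDREAM replicate 2, 783 without daDREAM replicate 3).

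The replicate numbers were not taken as pairs. Deviations of same-numbered arrays correlated at 0.21, 0.0063, 0.33 and 0.36 over genes. The largest correlation with another number was 0.31, 0.11, -0.039 and 0.017. Replicates 3 and 4 thus correlated best with their own number, and replicates 1 and 2 did not. These values do not settle whether the arrays were paired. The replicate block changed no receptor call, but raised the genes past the test from 364 to 672.

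Differences that did not pass in the main test changed sign as follows. With the most variable probe set a gene could be read at another probe set, and Ntrk3, then read at 1447723_at, passed (limma adjusted p = 5.92e-06). With the mean of probe sets they were -0.20 for Ntrk3, 0.23 for Ngfr, 0.085 for Ret and 0.011 for Gfra1, and with the most variable probe set -1.58 for Ntrk3, 0.44 for Ngfr, 0.235 for Ret and 0.23 for Gfra1. Gfra2 read -0.031 after renewed quantile normalization and -0.022 with array weights, and Osmr -0.017 with array weights. Without the arrays with Xist, Gfra2 read -0.018 and Osmr -0.12; without those with the most 18S, Gfra2 read -0.0325, Gfra4 -0.035 and Osmr -0.0375; without those with the most Gh, Ngfr read 0.047 and Ret 0.020. Without single arrays Ngfr ran from -0.065 to 0.058, Gfra2 from -0.041 to 0.089, Gfra3 from -0.073 to 0.023 and Osmr from -0.0092 to 0.23. Among further probe sets, Ntrk2 1435305_at ran from -0.0067 to 0.16 (-0.040 without 18S arrays), Ntrk2 1444121_at from -0.054 to 0.029, Ntrk3 1425070_at from -0.10 to 0.035 (0.0325 after quantile normalization) and Osmr 1459217_at from -0.024 to 0.0925 (-0.053 without Gh arrays). Gfra1 1450440_at ran from -0.057 to 0.073 and read 0.024 with array weights and 0.060, 0.055 and 0.022 without the Xist, 18S and Gh arrays.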
